A study of Homo sapiens with 14 samples.

Results

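Metallothioneins are small, cysteine-rich proteins that bind zinc, copper and cadmium in the cytosol. They were followed here as 9 listed human genes, MT1A, MT1E, MT1F, MT1G, MT1H, MT1M, MT1X, MT2A and MT3. Each symbol was matched to its Ensembl gene ID in a table of RNA read counts over 61541 genes, and all 9 were found. The RNA came from 6 libraries labelled as BxPC-3, a human pancreatic cancer cell line. In 3 of them a short hairpin against HDAC5, a class IIa histone deacetylase, was expressed (shHDAC5, genotype given as HDAC5 knockdown), and 3 carried a control hairpin (shControl, genotype given as WT), all at day 3. GATA1 binding was mapped in PANC-1, another pancreatic cancer line, at day 3, and 1 peak list per condition was used. Sample titles there read shHDAC5 for the knockdown and NC for the control. The NC list is the one described below as labelled shControl. The labels do not say whether the 3 libraries of a condition are separate cultures. The p-values therefore reflect the scatter among these libraries alone, and it may be technical.

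Metallothionein genes are switched on by free zinc through MTF1, a zinc-sensing transcription factor that binds metal response elements in their promoters, and also by cadmium, glucocorticoids and oxidants. MT2A and the MT1 genes are expressed in many tissues, whereas MT3 is best known from brain and MT4 from stratified squamous epithelium. Metallothioneins take up zinc when it is in excess and release it when it is scarce. Their mRNA level is therefore often read beside that of the zinc transporters.

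The libraries held 15179758 to 17854340 counts. At least 1 read fell on 33115 to 33632 genes per library labelled shHDAC5 and on 25775 to 26078 genes per library labelled shControl. HDAC5 itself stood at 164 ± 4.44 CPM (read counts scaled to a common library size) in the libraries labelled shHDAC5 and at 94.9 ± 2.99 CPM in those labelled shControl (SD, n = 3 each), which goes against the label. Every direction below is therefore between libraries as labelled. The keratins KRT8 and KRT18 were abundant in all 6 libraries. KRT7, a ductal keratin, fell to 25.3 ± 0.445 CPM under shHDAC5 labels, against 371 ± 9.72 CPM under shControl labels (SD, n = 3 each), a log2 fold change of -3.87. By contrast, KRT19, EPCAM and CDH1, defining markers of pancreatic ductal epithelium, were low. They averaged 0.0947, 1.99 and 1.33 CPM under shHDAC5 labels, against 0.0215, 1.84 and 1.43 CPM under shControl labels. Values this low for defining markers go against the cell line label, and the identity of the line was not tested. Of the 16 markers of fibroblasts, leukocytes and endothelial cells, LUM had no count at all, COL1A2, CD3E and LYZ had 3, 2 and 1 counts under shHDAC5 labels and none under shControl labels, and PTPRC, the pan-leukocyte marker, had 5 counts under shHDAC5 labels and 1 under shControl labels. Among the more abundant markers, COL1A1 stood at 79.6 CPM under shHDAC5 labels and 92.3 CPM under shControl labels, and PDGFRB at 6.59 CPM under shHDAC5 labels and 29.6 CPM under shControl labels. CD14 had 89 counts under shHDAC5 labels and 3 under shControl labels, and VWF had 118 counts under shHDAC5 labels and 11 under shControl labels. The 6 fibroblast markers summed to 85.7 to 90.9 CPM under shHDAC5 labels and 121 to 131 CPM under shControl labels. The 6 leukocyte markers summed to 1.73 to 2.75 CPM under shHDAC5 labels and 0.193 to 0.302 CPM under shControl labels. The 4 endothelial markers summed to 3.24 to 4.07 CPM under shHDAC5 labels and 1.09 to 1.48 CPM under shControl labels. Their part in the results was not tested. In bulk RNA, fewer cells with a transcript and less of it per cell cannot be told apart.

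All 9 genes lie on chromosome 16, from the start of MT3 at 56589528 to the end of MT1X at 56684196 (GRCh38.p14), a span of 94.67 kb. Promoter sequence was at hand for 3 of them, MT2A, MT1X and MT1H. All 3 are shown. MT2A and MT1X carried most of the reads, while MT1H had no read in any library. Each sequence is the 250 bases before the annotated start on the plus strand, at chr16:56608334-56608583, chr16:56682220-56682469 and chr16:56669564-56669813 (RefSeq). Capitals mark matches to the core of the metal response element, searched on both strands as TGCACNC and, in its other form, as TGCGCNC.
MT2A: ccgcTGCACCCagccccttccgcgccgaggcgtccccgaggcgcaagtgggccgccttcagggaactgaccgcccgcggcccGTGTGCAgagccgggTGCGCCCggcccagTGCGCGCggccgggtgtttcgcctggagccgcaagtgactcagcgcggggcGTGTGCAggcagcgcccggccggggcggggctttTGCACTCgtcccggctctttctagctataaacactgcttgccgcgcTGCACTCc
MT1X: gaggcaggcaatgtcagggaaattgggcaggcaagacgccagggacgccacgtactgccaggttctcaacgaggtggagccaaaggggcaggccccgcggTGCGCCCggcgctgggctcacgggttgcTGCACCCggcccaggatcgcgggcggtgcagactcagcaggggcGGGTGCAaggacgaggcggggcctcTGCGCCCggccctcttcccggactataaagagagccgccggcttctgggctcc
MT1H: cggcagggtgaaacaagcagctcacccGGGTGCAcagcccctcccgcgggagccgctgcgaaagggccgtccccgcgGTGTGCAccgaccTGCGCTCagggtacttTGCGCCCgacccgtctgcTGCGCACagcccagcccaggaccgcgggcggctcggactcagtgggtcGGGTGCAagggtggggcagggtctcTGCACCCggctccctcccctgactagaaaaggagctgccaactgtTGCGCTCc

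The MT2A promoter held 7 such matches, MT1X 4 and MT1H 8, with no overlap among them. Of 35116 promoters searched in the same way, 24.8% held at least 1 match and 1.58% held 3 or more. At least as many as in MT2A were found in 0.0313%, as in MT1X in 0.37% and as in MT1H in 0.0171%. The match is a run of letters and was not tested for MTF1 binding. MT1H, which had no read, thus carried at least as many matches as the expressed MT2A and MT1X. None of the windows of MT2A, MT1X and MT1H held a GATA match on either strand, which 22.3% of all promoters did. The window of MT1B held 1 GATA match and that of MT4 none. That search took the letters AGATAA, their variant ending in G instead, written AGATAG, and the forms that begin with T, namely TGATAA as well as its variant TGATAG.

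Nearly all reads on the 9 listed genes fell on MT2A, MT1X and MT1E, and all 3 rose in the libraries labelled shHDAC5, where 44.8% of all genes tested were called higher. The increase differed in size: MT1X rose 4.403-fold, MT2A 2.28-fold and MT1E 1.24-fold. The other 6 genes had 0 to 2 counts per group. The plot of counts by gene shows this split, with most reads on MT2A, fewer on MT1X and MT1E, and almost none elsewhere.

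**Figure D1:**
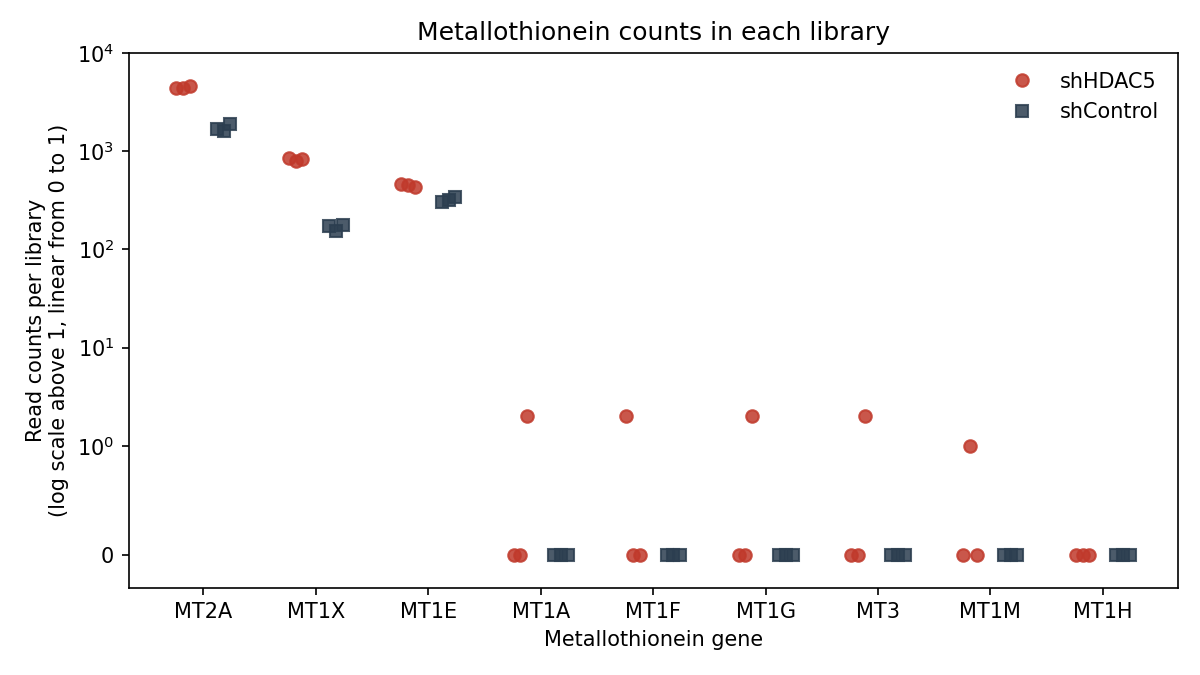
Read counts of the 9 metallothionein genes in each library, with shHDAC5 as red circles and shControl as dark squares, on an axis that is logarithmic above 1 and linear from 0 to 1. MT2A, MT1X and MT1E are higher in every library labelled shHDAC5, and the other 6 genes hold at most 2 counts in any library.

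MT2A (ENSG00000125148, chromosome 16, 56608584 to 56609497), the main human metallothionein, had 4355, 4441 and 4561 counts in the libraries labelled shHDAC5, against 1697, 1590 and 1912 counts in those labelled shControl. Scaled to depth this was 257, 254 and 255 CPM under shHDAC5 labels and 109, 111 and 115 CPM under shControl labels. The groups lay far apart, and libraries of a group differed by a few percent of the level. The means were 256 ± 1.64 CPM under shHDAC5 labels and 112 ± 3.17 CPM under shControl labels (SD, n = 3 each), a log2 fold change of 1.19 (standard error 0.0323, adjusted p = 2.27e-60 by edgeR's quasi-likelihood test).

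MT1X (ENSG00000187193, chromosome 16, 56682470 to 56684196), the last gene of the cluster, had 862, 799 and 838 counts in the libraries labelled shHDAC5, against 171, 154 and 179 counts in those labelled shControl. Its mean level was 47.8 ± 2.74 CPM under shHDAC5 labels and 10.9 ± 0.131 CPM under shControl labels (SD, n = 3 each). It showed the largest increase of the 3 expressed genes, and its groups did not overlap. The log2 fold change was 2.14 (standard error 0.0757, adjusted p = 1.23e-49 by edgeR's quasi-likelihood test).

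MT1E (ENSG00000169715, chromosome 16, 56625781 to 56627112) had 467, 453 and 431 counts in the libraries labelled shHDAC5, against 303, 319 and 345 counts in those labelled shControl. These correspond to 27.6, 25.9 and 24.1 CPM under shHDAC5 labels and 19.5, 22.3 and 20.8 CPM under shControl labels. The groups were close, with the lowest shHDAC5 library just above the highest shControl library. The means were 25.9 ± 1.75 CPM under shHDAC5 labels and 20.9 ± 1.39 CPM under shControl labels (SD, n = 3 each), a log2 fold change of 0.31 (standard error 0.0766, adjusted p = 0.000133 by edgeR's quasi-likelihood test).

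Differences were widespread across the transcriptome, which bears on how these calls are read. Of 19181 genes tested, 44.8% were called higher and 39.9% lower under shHDAC5 labels, taking an adjusted p below 0.05 as the threshold. Either direction together made up 84.7%. Non-overlapping CPM ranges were seen for 84.8%, and every library labelled shHDAC5 was above every library labelled shControl for 45% of tested genes. The count of 3 called higher among 3 tested metallothioneins therefore comes from a background in which such calls are common. By size, 14.3% of tested genes had a log2 fold change at least as high as that of MT1X, 23.3% as high as MT2A and 43.1% as high as MT1E. MT1E thus stood close to the middle of all genes. The median log2 fold change of all tested genes was 0.09 with TMM scaling. It was 0.12 with RLE, 0.23 with upper-quartile scaling and 0.27 with scaling to total counts alone. Relative to that median, MT1E was higher by 0.22, MT2A by 1.10 and MT1X by 2.05 on the log2 scale under each of these 4 scalings.

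Levels of different genes were compared per length, as TPM (read counts per base of gene, scaled to a common total). The gene lengths were those deposited by the authors. For MT2A and MT1X these were 914 and 1727 bases, the whole annotated span of each gene. MT1E was given 1052 bases of a span of 1332, and MT4 270 of 3885. Orders between genes by TPM therefore rest on unlike lengths. MT2A averaged 1056.5 ± 8.54 TPM in the libraries labelled shHDAC5 and 430 ± 8.57 TPM in those labelled shControl (SD, n = 3 each). Among the 19181 tested genes it ranked 56 under shHDAC5 labels and 213 under shControl labels. MT1X averaged 105 ± 5.96 TPM (rank 1313) under shHDAC5 labels and 22.1 ± 0.447 TPM (rank 6669) under shControl labels. MT1E averaged 93.0 ± 6.62 TPM (rank 1532) under shHDAC5 labels and 69.7 ± 4.36 TPM (rank 2308) under shControl labels. MT2A was therefore first under each label, while MT1X and MT1E changed places. Under shHDAC5 labels MT1X had 112, 101 and 102 TPM and MT1E 99.2, 93.7 and 86.0 TPM, ranges that lie side by side without overlap. Under shControl labels MT1E, at 65.8, 74.4 and 69.0 TPM, was well above MT1X, at 22.6, 21.9 and 21.8 TPM.

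The count shares of MT2A overlapped between the labels, while those of MT1X and MT1E moved in opposite directions, as the plot of shares by library shows. Of the summed counts of the 9 genes, MT2A made up 76.6%, 78.0% and 78.2% in the libraries labelled shHDAC5, against 78.2%, 77.1% and 78.5% in those labelled shControl. MT1X made up 15.2%, 14.03% and 14.4% under shHDAC5 labels, against 7.88%, 7.46% and 7.35% under shControl labels. MT1E made up 8.21%, 7.96% and 7.39% under shHDAC5 labels, against 13.96%, 15.5% and 14.2% under shControl labels. Shares were also taken of the summed TPM, in which counts are divided by gene length. There MT2A made up 83.5%, 84.4% and 84.7% under shHDAC5 labels, against 82.8%, 81.6% and 82.9% under shControl labels. These groups did not overlap.

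**Figure D2:**
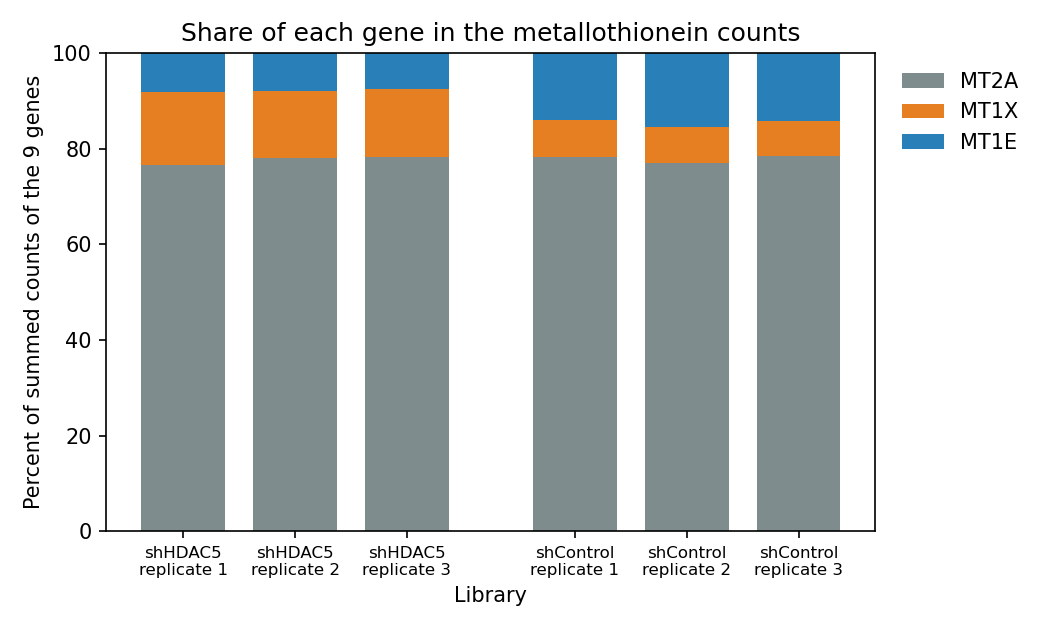
Percent of the summed metallothionein counts taken by MT2A, MT1X and MT1E in each library, with the 3 libraries labelled shHDAC5 on the left and the 3 labelled shControl on the right. MT2A takes 76.6% to 78.5% in all 6 libraries, and the MT1X part is larger and the MT1E part smaller under shHDAC5 labels.

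Ratios of counts within a library do not depend on scaling to depth. MT1X reads per MT1E read numbered 1.85, 1.76 and 1.94 in the libraries labelled shHDAC5, against 0.564, 0.483 and 0.519 in those labelled shControl, a difference of 1.83 on the log2 scale. MT2A reads per MT1E read numbered 9.33, 9.80 and 10.6 under shHDAC5 labels, against 5.60, 4.98 and 5.54 under shControl labels, a log2 difference of 0.88. MT2A reads per MT1X read numbered 5.05, 5.56 and 5.44 under shHDAC5 labels, against 9.92, 10.3 and 10.7 under shControl labels, a log2 difference of -0.95. The groups did not overlap for any of the 3 ratios. The exact two-sided permutation test gave p = 0.1 for each, also after adjustment over the 3 ratios, which is the smallest p that 3 against 3 libraries allow.

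Summed over the 9 genes, metallothionein RNA reached 329 ± 5.73 CPM in the libraries labelled shHDAC5 and 144 ± 3.68 CPM in those labelled shControl (SD, n = 3 each), a ratio of 2.29. Without MT2A the sums were 73.9 ± 4.14 CPM under shHDAC5 labels and 31.7 ± 1.27 CPM under shControl labels, a ratio of 2.33.

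The other 6 listed genes were not detectable at this depth and did not enter the test. MT1A and MT1G had 2 counts each, and so did MT3, all in shHDAC5 replicate 3. MT1F had 2 counts in shHDAC5 replicate 1 and MT1M had 1 count in shHDAC5 replicate 2. MT1H had no count in any library. No read fell on any of the 6 under shControl labels. A total of 3 counts corresponds to 0.0574 CPM over the libraries labelled shHDAC5 and 0.0646 CPM over those labelled shControl, and all 6 genes lay below these limits, so no fold is given. Beside this, of 8654 genes with 1 to 3 counts in all, 72.0% had them only under shHDAC5 labels and 15.8% only under shControl labels. Near-identical copies among the members may share reads, though sequence identity was not compared here. The sources used here do not say how reads that match several members were counted. A low count can thus also come from reads that were dropped or given to a relative, and so can part of the counts of MT2A, MT1X and MT1E. This was not tested.

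Beyond the listed genes, 12 further metallothionein genes and pseudogenes had an entry in the count table, and 2 of them passed the filter on low counts. Both rose in the libraries labelled shHDAC5, where 44.8% of all genes tested were called higher. MT4, the metallothionein of stratified epithelium at the other end of the cluster, had 53, 56 and 64 counts under shHDAC5 labels, against 12, 15 and 10 counts under shControl labels. Its log2 fold change was 2.04 (standard error 0.276, adjusted p = 6.90e-11 by edgeR's quasi-likelihood test). MT1DP, a transcribed pseudogene between MT1A and MT1B, had 19, 17 and 24 counts under shHDAC5 labels, against 1, 1 and 2 counts under shControl labels, a log2 fold change of 3.62 (standard error 0.562, adjusted p = 6.58e-09 by edgeR's quasi-likelihood test). The groups of MT4 and of MT1DP did not overlap, as was seen for 84.8% of all genes tested. MT1DP passed the filter only through the libraries where it was high, so its direction was fixed by that filter. Per length, MT4 averaged 46.3 ± 3.11 TPM under shHDAC5 labels and 10.5 ± 2.94 TPM under shControl labels (SD, n = 3 each), over a deposited gene length of 270 bases. MT1DP averaged 6.20 ± 0.965 TPM under shHDAC5 labels and 0.427 ± 0.153 TPM under shControl labels. Under each label MT4 was thus below MT1E and MT1X per length, and MT1DP was below MT4. The deposited lengths behind this order are unlike parts of the genes.

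The other pseudogenes and copies were near 0. MT1XP1 had 8, 4 and 5 counts in the libraries labelled shHDAC5, against 2, 3 and 3 counts in those labelled shControl. MT1P3 had 2, 6 and 4 counts under shHDAC5 labels, against 0, 1 and 0 counts under shControl labels, and MT1P1 had 3, 0 and 5 counts under shHDAC5 labels, against 0, 0 and 2 counts under shControl labels. MT1XP1, MT1P1 and MT1P3 lie outside the cluster, on chromosomes 1, 9 and 20. MT1L, MT2P1 and MT1B had 3, 3 and 2 counts over the libraries labelled shHDAC5, against 2, 1 and 0 counts over those labelled shControl. MT1HL1, MT1JP, MT1CP and MT1IP had no count.

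The counts in the gene lists that follow stand beside 44.8% of all genes tested that were called higher and 39.9% that were called lower. The factors known to switch on metallothionein genes did not share a direction. Of 6 listed factors all were tested, and 1 rose and 5 fell, with a median of -0.87 among their log2 fold changes, beside 0.09 for all genes tested. MTF1, the zinc sensor that binds metal response elements, rose to 71.5 ± 1.88 CPM in the libraries labelled shHDAC5, against 20.4 ± 0.274 CPM in those labelled shControl (SD, n = 3 each), a log2 fold change of 1.81 (standard error 0.0586, adjusted p = 3.59e-53 by edgeR's quasi-likelihood test). NR3C1, the glucocorticoid receptor, fell to 76.7 ± 3.73 CPM under shHDAC5 labels, against 186 ± 7.04 CPM under shControl labels, a log2 fold change of -1.28. SP1, a general promoter factor, fell to 123 ± 2.54 CPM under shHDAC5 labels, against 279.5 ± 13.8 CPM under shControl labels. USF2, an E-box factor, fell to 15.3 ± 1.59 CPM under shHDAC5 labels, against 70.3 ± 1.04 CPM under shControl labels. MTF1 thus moved in the direction of the metallothioneins while the other 3 named factors moved the opposite way.

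Most of the listed zinc exporters carry zinc out of the cytosol. Of 10 listed, 7 were tested, 6 rose, none fell and SLC30A6 did not pass, where 44.8% of all genes tested rose and 39.9% fell. Their median log2 fold change was 0.55, beside 0.09 for all genes tested. SLC30A1, the plasma membrane exporter and a known MTF1 target, rose to 112 ± 3.79 CPM in the libraries labelled shHDAC5, against 76.5 ± 4.80 CPM in those labelled shControl (SD, n = 3 each), a log2 fold change of 0.55. SLC30A7, an exporter into the Golgi, rose to 80.1 ± 0.855 CPM under shHDAC5 labels, against 40.04 ± 5.001 CPM under shControl labels. SLC30A3, known from synaptic vesicles, rose to 12.3 ± 1.99 CPM under shHDAC5 labels, against 1.58 ± 0.471 CPM under shControl labels. SLC30A9 rose by 0.50, SLC30A4 by 0.87 and SLC30A5 by 0.23 on the log2 scale. SLC30A6 stood at 42.6 and 44.3 CPM under shHDAC5 and shControl labels.

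Zinc importers bring zinc into the cytosol, and of 14 listed, 11 were tested, 2 rose, 6 fell and 3 did not pass. Their median log2 fold change was -0.19. SLC39A14, an importer of zinc, iron and manganese, fell to 161 ± 4.71 CPM in the libraries labelled shHDAC5, against 445 ± 10.9 CPM in those labelled shControl (SD, n = 3 each), a log2 fold change of -1.47. SLC39A10, whose gene MTF1 represses in mouse cells, fell to 36.8 ± 0.76 CPM under shHDAC5 labels, against 98.0 ± 2.28 CPM under shControl labels, and SLC39A8 fell to 16.2 ± 0.564 CPM under shHDAC5 labels, against 43.9 ± 2.66 CPM under shControl labels. SLC39A6 and SLC39A11 changed by -0.70 and -0.56 on the log2 scale. SLC39A7, a transporter out of the endoplasmic reticulum, passed at -0.12, but its sign turned with upper-quartile scaling or total counts alone. SLC39A9 and SLC39A3 rose, by 0.85 and 0.73. SLC39A1, SLC39A4 and SLC39A13 did not pass, at -0.11, -0.19 and 0.06. The plot of log2 fold changes by list shows exporters mostly to the right of the median of all genes and importers on both sides of it.

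**Figure D3:**
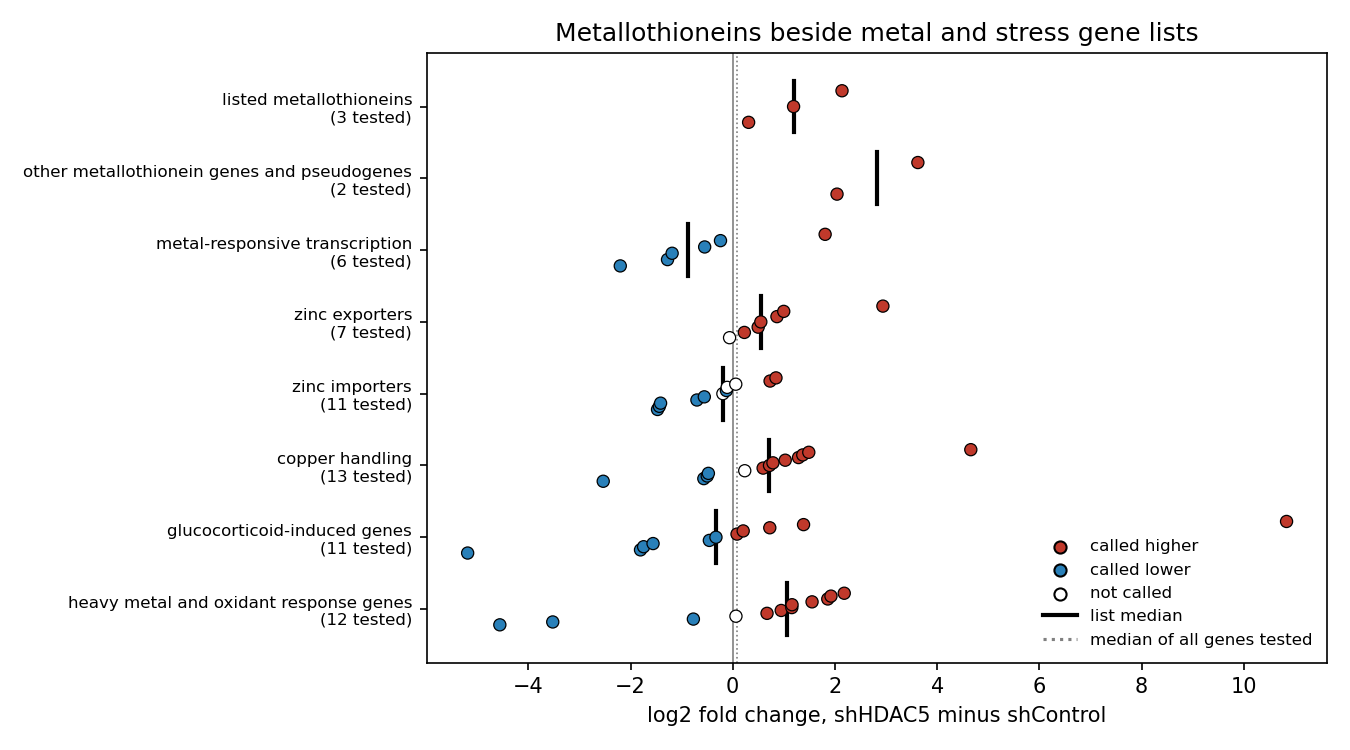
log2 fold change (shHDAC5 minus shControl) of each tested gene, in rows for the listed metallothioneins, the other metallothionein genes, their regulators, zinc exporters and importers, copper handling genes, glucocorticoid-induced genes and heavy metal and oxidant response genes. Red points were called higher, blue points lower and white points not called, black bars are list medians, and the dotted line is the median of all genes tested at 0.09. The far right point, TFCP2L1, is a fitted value for a gene with 2 counts under shControl labels.

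Copper also binds metallothioneins. Of 14 copper handling genes 13 were tested, and 8 rose, 4 fell and COMMD1 did not pass, against 44.8% higher and 39.9% lower over all genes tested. The median of their log2 fold changes was 0.72, beside 0.09 for all genes. SLC31A1, the copper importer, rose to 145 ± 5.20 CPM in the libraries labelled shHDAC5, against 88.2 ± 1.52 CPM in those labelled shControl (SD, n = 3 each). The copper chaperones ATOX1 and CCS rose by 1.49 and 1.03 on the log2 scale, and the metalloreductase STEAP4 fell to 5.10 ± 0.615 CPM under shHDAC5 labels, against 29.6 ± 1.58 CPM under shControl labels. COMMD1 stood at 8.83 and 7.48 CPM under shHDAC5 and shControl labels.

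Oxidants and cadmium induce metallothioneins together with other protective genes. Of 12 such genes, all tested, 8 rose, 3 fell and GCLM did not pass, and the median of their log2 fold changes was 1.05. GCLC, the catalytic subunit of the first enzyme of glutathione synthesis, rose to 128 ± 6.39 CPM in the libraries labelled shHDAC5, against 33.8 ± 0.881 CPM in those labelled shControl (SD, n = 3 each). TXNRD1, a thioredoxin reductase, rose by 1.16 on the log2 scale, while SLC7A11 and NQO1 changed by -4.56 and -3.52. GCLM, the partner subunit of GCLC, stood at 49.1 and 46.9 CPM under shHDAC5 and shControl labels. Of 12 genes known to be induced by glucocorticoids 11 were tested, 5 rose and 6 fell, and the median of their log2 fold changes was -0.33. PER1 rose to 219 ± 6.74 CPM under shHDAC5 labels, against 83.8 ± 4.94 CPM under shControl labels, SGK1 fell to 132 ± 3.72 CPM under shHDAC5 labels, against 462 ± 4.55 CPM under shControl labels, and CEBPD fell to 1.15 ± 0.129 CPM under shHDAC5 labels, against 42.0 ± 4.66 CPM under shControl labels. TFCP2L1 stood at 92.8 and 0.0447 CPM under shHDAC5 and shControl labels, the lower value from 2 counts.

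The genes beside the metallothionein cluster moved both ways. Within 500 kb of the outermost listed genes, 12 other coding genes were in the count table. Of 10 tested, 4 rose and 6 fell, where 44.8% of all genes tested were called higher and 39.9% lower. The median of the neighbours' log2 fold changes was -0.50, beside 0.09 for all genes tested. Counts among so few genes do not set the neighbours apart. The nearest on the MT3 side, BBS2, a subunit of a ciliary transport complex, rose by 0.55 on the log2 scale, and OGFOD1, an overlapping gene, rose by 0.33. The nearest on the MT1X side, NUP93, a nuclear pore scaffold protein, rose to 153 ± 0.73 CPM in the libraries labelled shHDAC5, against 107 ± 1.23 CPM in those labelled shControl (SD, n = 3 each), a log2 fold change of 0.52. GNAO1, a G protein subunit that lies farther out on the MT3 side, rose by 0.64, while NUDT21, which lies between GNAO1 and OGFOD1, changed by -0.71. On the MT1X side beyond NUP93, HERPUD1 and PSME3IP1 changed by -0.36 and -0.75. CPNE2 and NLRC5, a regulator of MHC class I genes, changed by -1.88 and -3.14. SLC12A3 and CETP, the other 2 neighbours, were too low to be tested. MT2A, MT1X and MT4 had higher log2 fold changes than each tested neighbour, and MT1E, at 0.31, was lower than BBS2, OGFOD1, NUP93 and GNAO1.

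**Figure D4:**
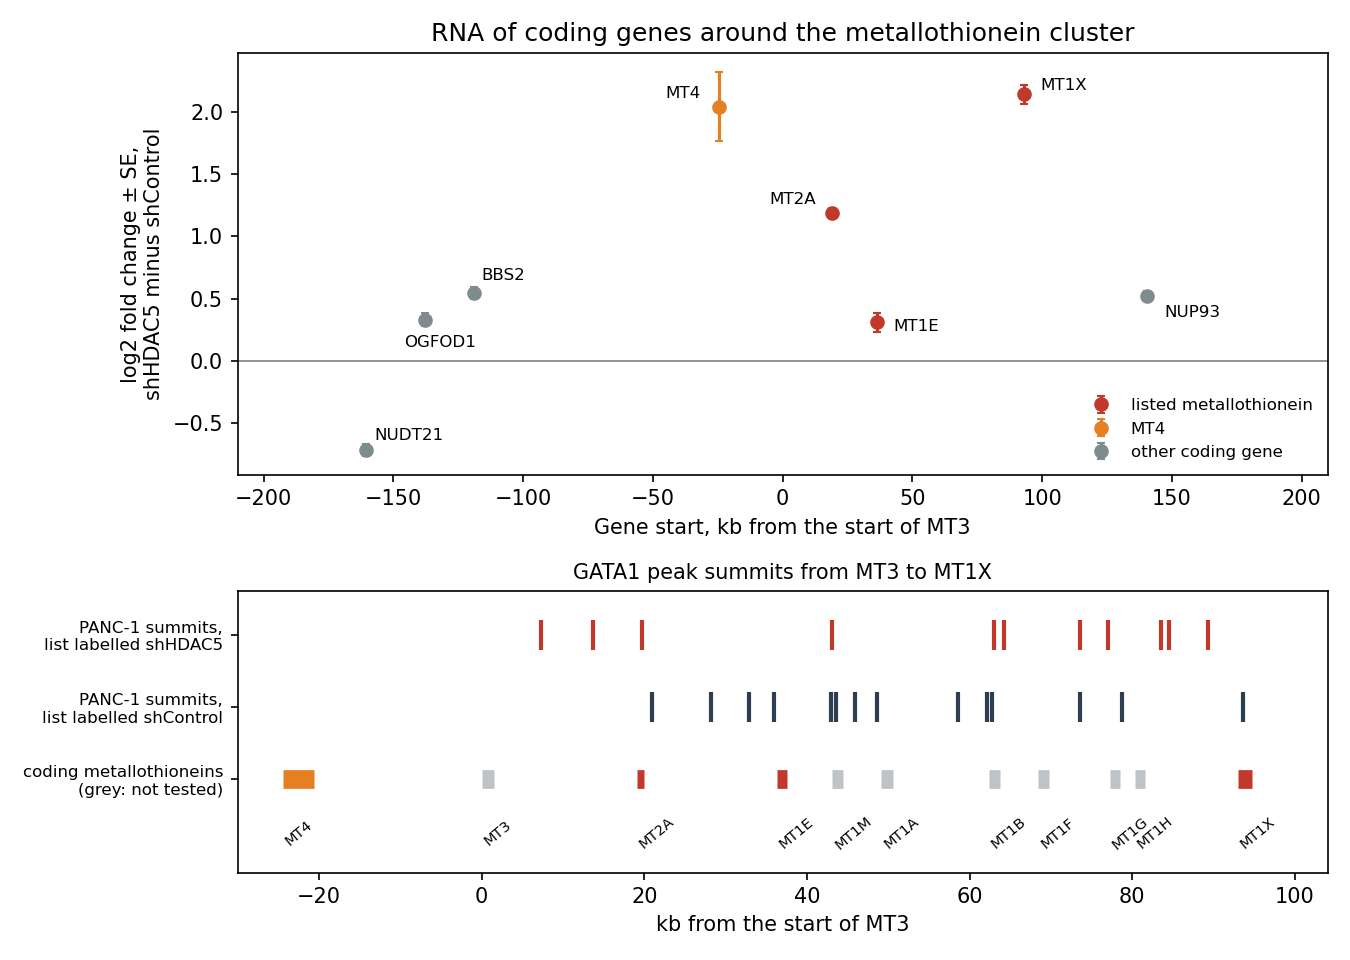
Upper panel, log2 fold change with its standard error (shHDAC5 minus shControl) of tested coding genes that start within 200 kb of the start of MT3, against that distance in kb, with listed metallothioneins in red, MT4 in orange and other genes in grey. Lower panel, the coding metallothionein genes to scale with GATA1 peak summits in PANC-1 above them, 11 in the list labelled shHDAC5 and 14 in the list labelled shControl. These lists held 249139 and 121070 peaks in all.

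The profile of MT2A over the 6 libraries was compared with that of 12205 coding genes whose log2 CPM averaged 1 or more, by the Euclidean distance of mean-centred log2 CPM. Among the closest were RHPN1, OSBPL9, PBXIP1 and MYO9B, at distances from 0.0502 to 0.0631. These 4 had log2 fold changes between 1.17 and 1.19. Within a distance of 0.5 lay 1246 genes, so that with 2 groups of 3 libraries the likeness is mostly that of the fold change. OSBPL9, for example, averaged 318 ± 5.92 CPM in the libraries labelled shHDAC5 and 141 ± 5.63 CPM in those labelled shControl (SD, n = 3 each).

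GATA1, which controls red blood cell development, had little RNA in the libraries labelled as BxPC-3. It stood at 2.85 ± 0.438 CPM under shHDAC5 labels and 0.344 ± 0.093 CPM under shControl labels (SD, n = 3 each). Its peaks at the metallothionein cluster in PANC-1 could not be tested between conditions, since there was 1 list per condition. Peak names inside the lists also went against their labels: names began with GATA1-NC-IP in the list labelled shHDAC5 and with GATA1-SAHA-IP in the list labelled shControl. From 1 kb before MT3 to 1 kb after MT1X, the list labelled shHDAC5 held 11 peaks and the list labelled shControl held 14. Over the autosomes and sex chromosomes the list labelled shHDAC5 held 249139 peaks and the list labelled shControl 121070. The 2 counts in the cluster thus come from lists of unlike size. The fold enrichment given by the authors ran from 1.71 to 2.99 in the list labelled shHDAC5, whose median over all peaks was 2.33, and from 2.39 to 3.23 in the list labelled shControl, with a median of 2.73. No peak in the cluster had a q of at most 0.05 in either list, a level reached by 0.419% of all peaks in the list labelled shHDAC5 and 5.1% in the list labelled shControl, so that none among so few peaks does not set the cluster apart. In the cluster the highest −log10 q was 0.0766 in the list labelled shHDAC5 and 0.357 in the list labelled shControl. Of the cluster's peaks, 3 of 11 (27.3%) in the list labelled shHDAC5 and 3 of 14 (21.4%) in the list labelled shControl overlapped a peak of the other list by at least 1 base. The same share over all peaks was not computed, so these shares do not set the cluster apart.

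Summits lay within 1 kb of either end of 3 of the 9 listed genes in the list labelled shHDAC5, MT2A, MT1M and MT1G, where 33.9% of 20037 coding genes had one. In the list labelled shControl there were 6 of 9, MT2A, MT1E, MT1M, MT1A, MT1G and MT1X, where 52.1% of coding genes had one. These shares are near the background of each list. At MT2A the summit was inside the gene, at 56609297, in the list labelled shHDAC5, and 972 bases beyond its end, at 56610469, in the list labelled shControl. At MT1X the list labelled shControl had a summit inside the gene, at 56683101, and the nearest summit of the list labelled shHDAC5 lay 3663 bases away. Genes with a summit thus included the expressed MT2A and the undetected MT1M and MT1G, although RNA and peaks are labelled as different cell lines.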

How the data were processed

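RNA was deposited by the authors as whole-number counts per Ensembl gene, with gene lengths and no normalization. Per the submitters' processing notes, hg38 was the build, and MACS2 2.2.7.1, deepTools 3.5.0, featureCounts 2.0.1, fastp 0.23.2 and FastQC 0.11.9 were among the tools, with no roles stated. No source used here gives the aligner, annotation release, strand setting, treatment of reads with several matches, or whether immunoprecipitations were pooled. The deposited peak lists hold the authors' fold enrichment as a ratio, their −log10 q, and a score that was not used.

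All listed symbols had a gene ID. Low counts were removed with edgeR's filterByExpr, libraries were scaled by TMM, and group was the only term of edgeR's quasi-likelihood fit, adjusted by Benjamini-Hochberg over 19181 genes at a threshold of 0.05 (R 4.3.3, edgeR 4.0.16, limma 3.58.1). Standard errors were taken as log2 fold change divided by root F. The procedure was first tested on simulated data. Limits from 3 counts cover counting error only. Promoters and positions are from RefSeq tables of GRCh38.p14, read with Python 3.11.15 and pandas 2.3.3, and figures were drawn with matplotlib 3.10.9.

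The members, gene lists and alternatives were chosen with earlier results of these data known. Named are the 9 members, other metallothionein genes with a count, HDAC5, GATA1, MTF1, NR3C1, SLC30A1, up to 4 called genes per metal or stress list by adjusted p, tested coding neighbours within 500 kb and the 5 genes most like MT2A. Other zinc transporters, genes that did not pass and cell type markers were added after their values were seen. Alternatives were DESeq2 1.42.0, other scalings and filters, a threshold of 0.01, a replicate block, each library left out, other sums, and other peak thresholds and windows. A few genes that the naming rule selects are left out of the text. Inputs were not analysed here.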

Additional observations from a re-analysis of the deposited data

How the results depend on the processing

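The log2 fold changes of MT2A, MT1X and MT1E kept their sign and passed the threshold under all 14 alternatives, from 1.15 to 1.37, from 2.08 to 2.32 and from 0.25 to 0.49, with adjusted p from 3.49e-229 to 1.79e-34, from 1.39e-150 to 1.37e-29 and from 4.66e-09 to 0.00509. Relative to the median of all genes, MT1E was higher by 0.22 with TMM scaling but lower, at -0.41, without a filter on low counts, where 41231 genes were tested. The ratio of summed levels was 2.40 per length (TPM), against 2.29 as CPM. At a q of at most 0.05, 0 members had a summit within 1 kb in the list labelled shHDAC5 and 0 in the list labelled shControl, where 0.255% and 6.5% of coding genes had one. Within 5 kb 7 and 8 of 9 members had one in the lists labelled shHDAC5 and shControl, and so did 77.3% and 70.6% of coding genes. Replicate numbers did not pair the libraries: deviations from the group means correlated at -0.0126, 0.00258 and 0.00593 between same-numbered libraries. With the replicate number as a block, 8514 genes were called higher and 7558 lower, and no call of a metallothionein changed.

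Small changes among zinc transporters turned sign. With upper-quartile factors the log2 fold changes were 0.0788 for SLC30A6, 0.0313 for SLC39A1 and 0.0168 for SLC39A7, and with total counts alone they were 0.122, 0.0746 and 0.0601. Leaving out 1 library gave SLC39A1 values from -0.32 to 0.0655, and the sign turned without shHDAC5 replicate 3 or shControl replicate 1. Counts limit the 6 undetected members: fewer than 3 reads fell on each in any group, and nothing can be said of a change in them at this depth.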
